A study of Danio rerio with 8 samples.

Results

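Zebrafish long non-coding RNA (lncRNA) loci whose bounds overlap those of another locus are described here. A locus is a group of transcript models that carries 1 identifier in the deposited catalogue, and its bounds are the first and last base covered by any of its exons. A locus was taken when its bounds shared 1 or more bases with another locus on the same sequence, on either strand. This rule gave 47 of 1014 loci, or 4.64% of the catalogue, joined in 24 pairs. The series measured ribosome-protected RNA in pools of 400 to 600 wild-type TL/AB embryos at 8 stages, with 1 library per stage and no treatment. The stages were 2 to 4 cells, 256 cells, 1K cell, Dome, Shield, Bud, 28 hours and 5 days after fertilization. The results rest on the catalogue of transcript models alone; the footprints themselves were not analysed here, library depth is unknown, stages were not compared, and no value is a level of expression. All coordinates are those of the Zv9 build, counted from 1 with both ends included.

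Genes that share a stretch of the genome can do so in a few ways. When they lie on opposite strands and start close together, their first exons can face each other (head-to-head). When their last exons meet, they are tail-to-tail. A short gene can also sit inside an intron of a longer one, on either strand. RNAs made from opposite strands of the same exon bases are antisense to each other and can form base pairs. Many lncRNAs of vertebrates are antisense to another transcript or start beside one in the opposite direction, and these arrangements are therefore used to sort lncRNAs into classes.

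Of the 24 pairs, 15 lay on opposite strands and 9 on the same strand. In 9 pairs the smaller locus lay wholly inside 1 intron of at least 1 model of the larger. In a further 3 pairs, all on opposite strands, the smaller locus was contained in the larger and touched its exons. Head-to-head pairs numbered 6, tail-to-tail pairs 0, and staggered pairs on the same strand 6. A head-to-head or tail-to-tail pair was counted only where neither locus contained the other. It was head-to-head where the 5′ ends of both loci, taken from their bounds, lay in the shared stretch, and tail-to-tail where the 3′ ends did. No limit was set on the distance between these ends. The difference between 6 and 0 was not tested. Exon bases were shared in 9 pairs, made up of the 6 head-to-head pairs and the 3 contained ones. None of the 9 same-strand pairs shared any. Grouping all models by shared exon bases on 1 strand gave 1014 groups, and all 1014 held the same models as a deposited locus, so loci defined in this way cannot share exon bases on 1 strand.

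The overlap of a pair had a median of 2130.5 bp, with a range of 42 to 38390 bp. Opposite-strand pairs overlapped by a median of 2023 bp (n = 15) and same-strand pairs by 4914 bp (n = 9). The overlap took up a median of 97.0% of the shorter locus, but the 12 contained pairs score 100% by definition. The median was 24.2% in head-to-head pairs and 43.5% in staggered pairs. Summed over pairs it came to 136843 bp, and exons of both loci covered 4864 bp of that, or 3.55%. Most of the shared sequence was therefore intron in at least 1 of the loci. This follows in part from the definitions. The 9 same-strand pairs could not share exon bases, and nested pairs were classed by lying in an intron. Within the pairs that shared exon bases, a median of 19.2% of the overlap was exon in both loci. At the edge of the rule, the smallest overlaps were 42 bp, between XLOC_001717 and XLOC_001977, and 495 bp, between XLOC_012451 and XLOC_012971. The closest loci that stayed outside were separated by 156 bp, in 1 pair on chromosome 15 and 1 on chromosome 24.

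**Figure D1:**
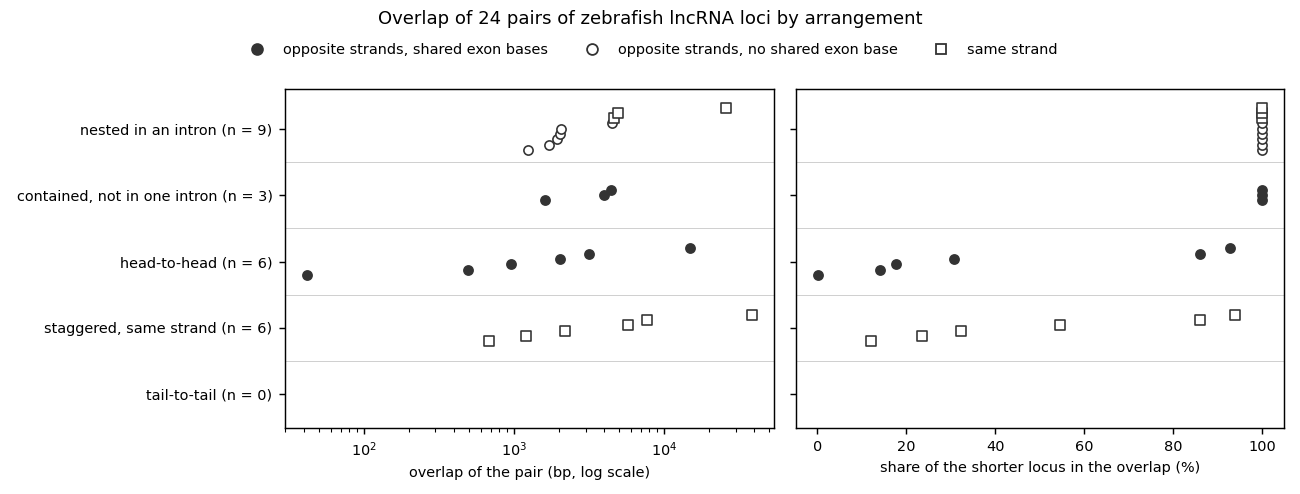
Overlap of each pair in bp (left, log scale) and as a share of the shorter locus in percent (right), by arrangement. Each point is 1 pair; circles are opposite-strand and squares same-strand pairs, and filled points share exon bases. The 6 head-to-head pairs run from 42 to 15000 bp and are all filled, and the tail-to-tail line is empty.

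The members lay on 14 of the 25 chromosomes, with 4 pairs each on chromosomes 5 and 14. These were 8 of the 68 loci of chromosome 5, which held the most loci of any chromosome, and 7 of the 45 loci of chromosome 14. Chromosomes 7, 16, 21 and 23 held 2 pairs each and a further 8 held 1 each. No member lay on an unplaced scaffold, where the catalogue had 22 of its 1014 loci, and no member carried a RefSeq model, which 17 of the 1014 did. With shares this small, few of the 47 members could be looked for there, and neither absence is read as a trait of the members. By the prefix of its models, a member came from the Zv9_ source alone in 28 cases, from the linc- source alone in 18 and from both in 1. The corresponding shares were 59.6% and 38.3% of members, against 56.0% and 40.0% of the 967 other loci. In 13 pairs a Zv9_ locus overlapped a linc- locus, in 8 both were Zv9_ loci and in 2 both were linc- loci. The remaining pair joined a linc- locus with the locus that had models of both sources. Given the shares of the 2 sources, mixed pairs would also be the most frequent kind under random pairing, and a preference was not tested. Of the 8 pairs of Zv9_ loci, 6 were on the same strand, while 10 of the 13 mixed pairs were on opposite strands.

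Members spanned a median of 10146 bp, with a range of 1245 to 275524 bp, against 6732 bp for the other loci. Since the rule works on the bounds, a wide locus has more chance to meet another one, and span is no independent feature of the members. A span of 100000 bp or more was found in 8 members, or 17.0%, and in 4.96% of the other loci. Spliced length differed less, with a median of 1026 nt in members and 1168 nt in the others. The median exon number of the longest model was 2 in both groups. Exactly 2 exons were found in 53.2% of members and 40.8% of the others, and a single exon in 12.8% and 12.4%. More than 1 transcript was listed at 38.3% of members and at 24.1% of the others, but extra transcripts also widen the bounds that the rule uses. None of these differences was tested.

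The head-to-head pairs are described first, with the 12 loci that form them. All 6 shared exon bases, between 42 and 533 nt. A first exon took part in every one of them, and in 4 pairs the first exons of both loci met. The class requires the 5′ ends of both loci to lie in the shared stretch, so a part for first exons is favoured by the definition. In 4 pairs the loci were a plus-strand Zv9_ locus and a minus-strand linc- locus. The linc- names carry the symbol of a coding gene; no source used here states the relation to that gene.

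The smallest overlap was on chromosome 11. XLOC_001977 (linc-phf2_1, minus strand, 28469483 to 28501965) bears the name of phf2, which encodes a histone demethylase. Its first exon of 42 nt, from 28501924 to 28501965, lay wholly inside the first exon of the model Zv9_00026528 of XLOC_001717 (plus strand, 28501924 to 28526422), and the lower coordinate of both exons was the same base, where the plus-strand model starts and the minus-strand exon is spliced. The 5′ ends of the models were 41 bp apart. The second model of XLOC_001717, Zv9_00026529, started at 28502012 and did not reach the other locus, with 5′ ends 47 bp apart. The call of an overlap here thus rested on 1 of the 2 models of XLOC_001717.

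On chromosome 14, XLOC_003684 (linc-sox3_1, minus strand, 33693090 to 33696501) overlapped XLOC_003395 (plus strand, 33693335 to 33699902) by 3167 bp. Sox3 is a transcription factor of early neural progenitors. The plus-strand locus had 2 models that ended within 1 base of each other and differed in their start. Zv9_00033029 started at 33693335, inside the second and last exon of linc-sox3_1, and shared 131 nt with it. Zv9_00033030 started at 33696113, in the intron of linc-sox3_1, and its first exon of 867 nt covered the whole first exon of linc-sox3_1 (205 nt). The 5′ ends were 3166 bp apart for the first of these models and 388 bp apart for the second. Together the stretches made up 57.8% of the exon sequence of the linc- locus and 29.1% of that of its partner. The nearest splice positions of these loci were 31 bp apart, the closest among the pairs that shared exon bases.

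The only head-to-head pair with linc- models at both loci lay on chromosome 16 and carried 1 name. XLOC_004459 (linc-otoa_1, plus strand, 24213545 to 24288937) and XLOC_004803 (linc-otoa_2 and linc-otoa_3, minus strand, 24204119 to 24215580) overlapped by 2036 bp. The otoa gene encodes otoancorin, a protein of the inner ear. The shared exon stretch, from 24213617 to 24213825, measured 209 nt and belonged to the first exon of all 3 models. It made up 74.4% of the first exon of linc-otoa_1 (281 nt). The minus-strand models shared their 6 internal exons and differed at both ends, with first exons of 527 and 1964 nt and last exons of 3412 and 409 nt. Their 5′ ends lay 598 and 2035 bp from that of linc-otoa_1.

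In 2 further pairs a short Zv9_ model met a linc- model of 3 exons. On chromosome 5, XLOC_012451 (Zv9_00010912, plus strand, 26958703 to 26974708) started inside the first exon of XLOC_012971 (linc-zgc:112985_1, minus strand, 26955709 to 26959197). The RefSeq table lists zgc:112985 as a synonym of carnmt1, which encodes a carnosine methyltransferase. The first exon of Zv9_00010912, 123 nt, lay wholly inside the 554 nt first exon of the linc- model, with 5′ ends 494 bp apart. That stretch was 69.5% of the exon sequence of XLOC_012451, whose single model had a spliced length of 177 nt over 16006 bp. On chromosome 7, XLOC_014101 (Zv9_00016768, plus strand, 23799140 to 23822543) started inside the second exon of XLOC_014525 (linc-cldn7a_1, minus strand, 23796995 to 23800090). Claudins, such as the product of cldn7a, build tight junctions between epithelial cells. The first exon of Zv9_00016768, 183 nt, lay wholly inside that 312 nt exon and made up 77.2% of the exon sequence of its locus. The 5′ ends were 950 bp apart. In each of these pairs the Zv9_ model left the linc- locus through 1 long intron (15829 and 23167 bp) to a last exon of 54 nt.

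The longest head-to-head overlap, 15000 bp, was formed by Zv9_ models alone on chromosome 14. XLOC_003680 (Zv9_00033951, minus strand, 32941575 to 32958996) had a last exon of 6288 nt, the bulk of its 6518 nt spliced length. XLOC_003391 (plus strand, 32943997 to 32982384) had 2 models, and their first exons (500 and 55 nt) and shared second exon (33 nt) lay inside that last exon. The stretches came to 533 nt, or 22.8% of the exon sequence of XLOC_003391. The 5′ ends were 14999 bp apart by locus and 14554 bp for the model Zv9_00033021. For the other model, Zv9_00033020, which ended at 32958672, the pair was not head-to-head, because it lay wholly within the bounds of the minus-strand locus. The 5′ ends of head-to-head pairs thus stood between 41 and 14999 bp apart, with a median of 1492.5 bp.

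**Figure D2:**
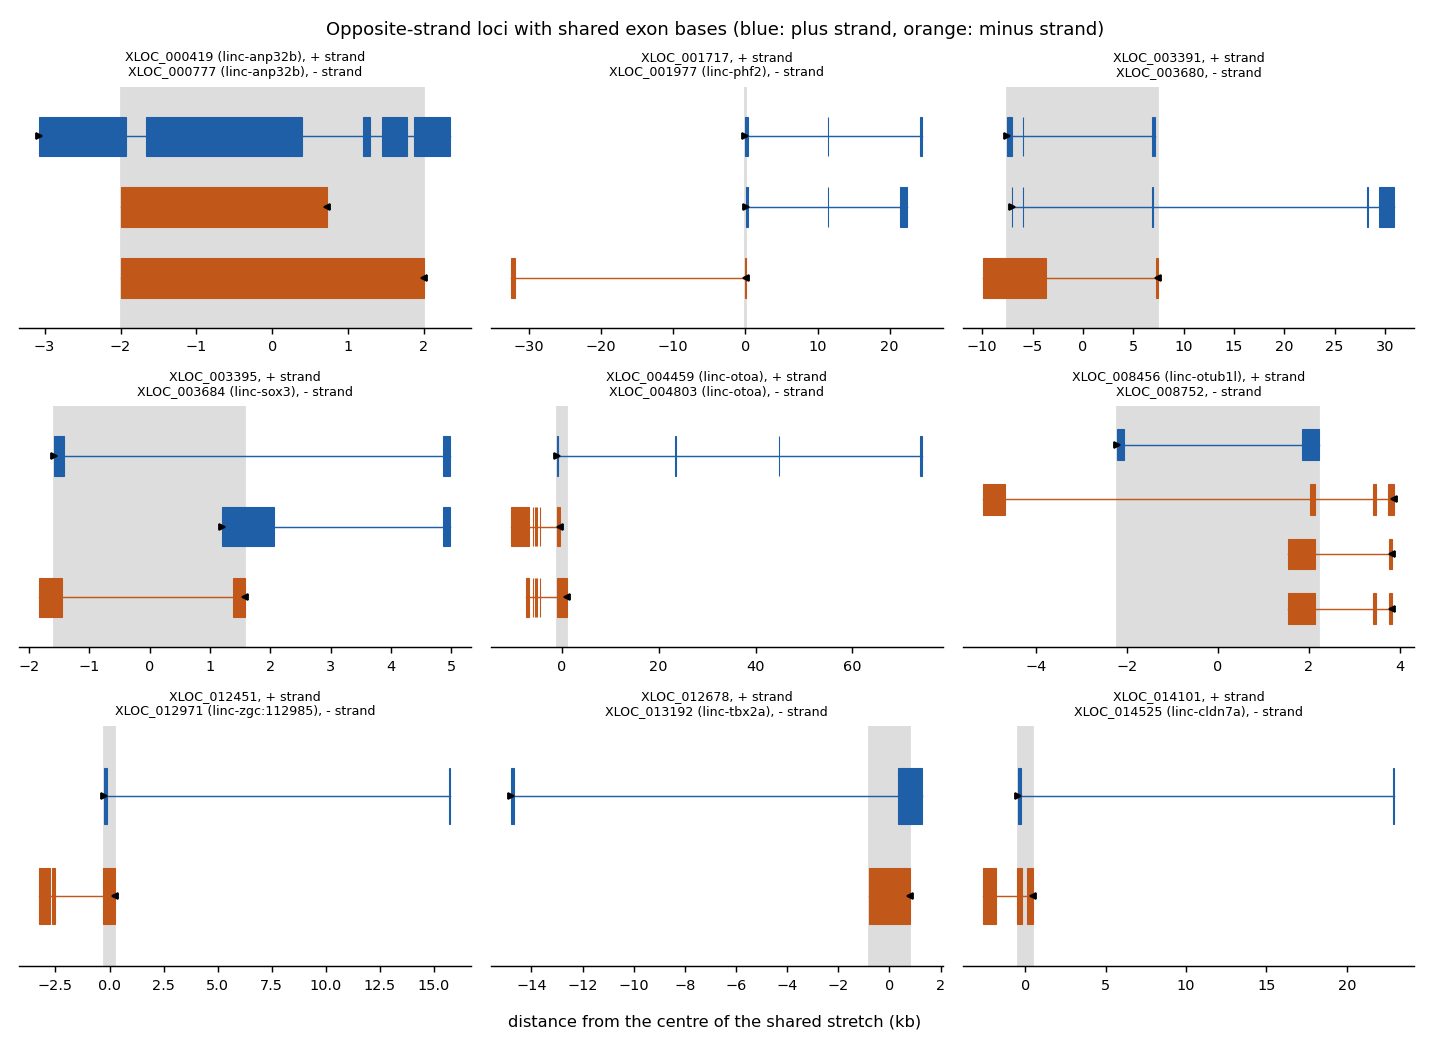
Transcript models of the 9 pairs that share exon bases; boxes are exons, lines introns and black arrowheads 5′ ends, blue for the plus and orange for the minus strand. The x axis is the distance in kb from the centre of the shared stretch (grey). Starts of opposite-strand models face each other across the grey stretch in 6 panels, and in the panels of linc-anp32b, linc-otub1l and linc-tbx2a 1 locus lies within the other.

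The 3 contained pairs with shared exons included the most extensive exon overlap of the catalogue. On chromosome 1, XLOC_000777 (minus strand, 25631827 to 25635826) lay wholly inside XLOC_000419 (plus strand, 25630758 to 25636172), and both carried the name anp32b. The product of anp32b is an acidic nuclear phosphoprotein that binds histones. The minus-strand locus had 2 single-exon models of 4000 and 2716 nt that shared their 3′ end, and the plus-strand model linc-anp32b_1 had 5 exons with a spliced length of 4103 nt. The 4000 nt model crossed all 4 introns of linc-anp32b_1. It covered exons 2, 3 and 4 completely and parts of exons 1 and 5. Shared exon bases came to 2688 nt in 5 stretches, of which the longest, 2065 nt, was the whole second exon. That was 67.2% of the minus-strand locus and 65.5% of the exon sequence of the plus-strand locus. The shared exon bases of the other 8 pairs ranged from 42 to 533 nt.

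On chromosome 21, XLOC_008456 (linc-otub1l_1, plus strand, 27890660 to 27895096) lay inside XLOC_008752 (minus strand, 27887720 to 27896748), which had 3 Zv9_ models. The RefSeq table lists otub1l as a synonym of otub1a, a gene for an enzyme that removes ubiquitin. Containment held for 1 of the 3 models, Zv9_00049090, whose intron of 6713 bp carried it past the linc- locus to a last exon at 27887720. The other models, Zv9_00049091 and Zv9_00049092, ended at 27894432, and with them the arrangement was tail-to-tail, with an overlap of 665 bp. Their last exon of 581 nt shared 287 nt with the last exon of linc-otub1l_1 (371 nt). This was the only tail-to-tail contact of the catalogue, and it was visible in single models, not in the bounds of the loci.

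On chromosome 5, XLOC_013192 (linc-tbx2a_1, minus strand, 57913902 to 57915511) was a single exon of 1610 nt inside XLOC_012678 (Zv9_00011602, plus strand, 57899917 to 57915982). The T-box factor Tbx2a is a transcription factor of several organs, the heart among them. The linc- model started inside the last exon of Zv9_00011602 (934 nt), shared 463 nt with it and ended in its 15040 bp intron. Antisense bases made up 45.1% of the exon sequence of the host locus and 28.8% of that of linc-tbx2a_1.

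Over the 9 pairs with shared exon bases, 15 separate stretches were exonic on both strands, and 6 pairs had 1 stretch only. The median pair shared 287 nt. Exon ends next to an intron coincided in 0 of the 24 pairs, but most pairs could not have shown such a match. It needs a shared exon base and introns at both loci, which only 7 of these 9 pairs had. These 7 were on opposite strands, where the same position would end an exon of one locus and begin an exon of the other. Those kinds of exon end carry different splice motifs, which were not analysed here. The 0 may thus be fixed in advance for these 7 as well, and no conclusion is drawn from it. In those 7 the nearest such ends were 31 to 384 bp apart, with a median of 190 bp.

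With both strands pooled, nesting in an intron was the most frequent arrangement, with 9 host loci and 9 nested loci. On opposite strands it numbered 6 pairs, as did head-to-head, and on the same strand 3 pairs, against 6 staggered. Hosts spanned a median of 166004 bp, with a range of 12491 to 275524 bp, and nested loci 2060 bp, with a range of 1245 to 26098 bp. Exons covered 0.213% to 4.92% of the hosts. Of the nested loci, 3 were single exons, 5 had 2 exons and 1 had 7. The introns that held them had a median of 62919 bp, taking the longest for each nested locus, against 1956.5 bp over all 2388 introns of the catalogue; an intron must be long to hold a locus, so this difference follows in part from the rule. In 6 cases the nested locus lay in the longest intron of every host model that contained it. For 3 of these 6 the host models had 1 intron only, so no other intron could hold the locus. A long intron also has more room for a locus, and a preference was not tested. Models named Zv9_ alone described 7 of the 9 hosts, against 56.0% of the other loci. Models named linc- alone described 5 of the 9 nested loci, against 40.0% of the other loci. A span of 100000 bp or more was found at 5 of the 9 hosts. Among the other loci it was found at 8.86% of those with Zv9_ models alone and 0% of those with linc- models alone. A tie of source to nesting apart from span was not tested.

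Among the nested pairs, 2 held loci with the names of hox genes. These genes encode transcription factors that pattern the body axis and stand in a row in clusters. No gene coordinate was used, so the link to a cluster rests on the names. On chromosome 23, XLOC_009640 (linc-hoxc1a, plus strand, 36237585 to 36242104) had 3 single-exon models with the same start and lengths of 1515, 4444 and 4520 nt. Its host XLOC_009920 (minus strand, 36162678 to 36328681), which includes linc-hoxc6a_1, had 7 models, the most of any member. All 6 multi-exon models of the host passed over linc-hoxc1a in an intron of 16482 to 75241 bp. Of these, 3 used an exon of 149 nt from 36242724 to 36242872, which left 619 bp between that exon and the 3′ end of linc-hoxc1a. In the other 3 that exon was absent and the nearest host exon on that side was 37029 or 59378 bp away. The single-exon model linc-hoxc6a_1, from 36162680 to 36167015, lay at the 3′ end of the host and did not overlap linc-hoxc1a.

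On chromosome 19, XLOC_006210 (linc-hoxa3a_1, plus strand, 19238344 to 19240283) was a single exon of 1940 nt inside XLOC_006546 (minus strand, 19200741 to 19242578). Of the 2 host models, Zv9_00044489 had an intron of 41296 bp that contained it, and the first exon of that model, 53 nt, stood 2242 bp from the 3′ end of linc-hoxa3a_1. The other model, Zv9_00044488, had its 5′ end at 19203236 and did not overlap. Beyond the host, after 3313 bp, began XLOC_006547, a further locus that carries the name hoxa3a and lies on the minus strand without overlap.

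The other 4 nested loci on the strand opposite to their host lay on chromosomes 4, 8, 16 and 23. XLOC_009492 (linc-rnd1_1, 17952515 to 17953759) was a single exon of 1245 nt in the second intron, 62919 bp long, of 2 of the 3 models of XLOC_009782 on chromosome 23 (17828712 to 18009916). The remaining model, Zv9_00052808, did not reach it. Its name, rnd1, is a synonym of rnd1a in the RefSeq table. XLOC_014937 (linc-si:dkey-23c22.6, 23342770 to 23344472) sat in the only intron of Zv9_00021018 at XLOC_015315 on chromosome 8 (23143814 to 23388899). That intron measured 244564 bp, and the nested locus filled 0.696% of it, at 44385 bp from the upstream exon of the host. XLOC_004985 (Zv9_00038770, 54498984 to 54501006) on chromosome 16 was the reverse case, a Zv9_ locus in a linc- host. It lay in the fourth intron, 34258 bp long, of both models of XLOC_004651 (linc-loc567622, 54483267 to 54538333), which had 6 and 11 exons. XLOC_011805 (Zv9_00008556, 13239146 to 13241205) on chromosome 4 came closest to a host exon. It started 67 bp from the last exon of Zv9_00009710 at XLOC_012129 (13239018 to 13251508), in an intron of 12098 bp. The spliced lengths of that pair were 270 and 393 nt.

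The other 3 nested loci were on the strand of their host, so the primary transcript of the host, if made as the model is drawn, would contain them in sense. XLOC_005611 (linc-zgc:112052_1, 12611360 to 12637457) on chromosome 18 was the longest nested locus after splicing, at 5536 nt in 7 exons. It lay in the third and last intron of both models of XLOC_005610 (12566332 to 12841855), the widest member. That intron measured 264000 bp, and the nested locus began 35148 bp into it. XLOC_014209 (Zv9_00017193, 36969543 to 36974456) on chromosome 7 lay in the third intron of all 3 models of XLOC_014208 (36889938 to 37058646). It began 1870 bp after the third exon, which all 3 models shared, while the next exon differed between the models, so that the intron measured 41572, 72835 or 89492 bp. XLOC_016018 (Zv9_00023436, 32791941 to 32796564) on chromosome 9 lay in the first intron, 23798 bp, of Zv9_00023435 at XLOC_016017 (32788479 to 32813774), with its 3′ end 2157 bp before the second exon of the host.

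**Figure D3:**
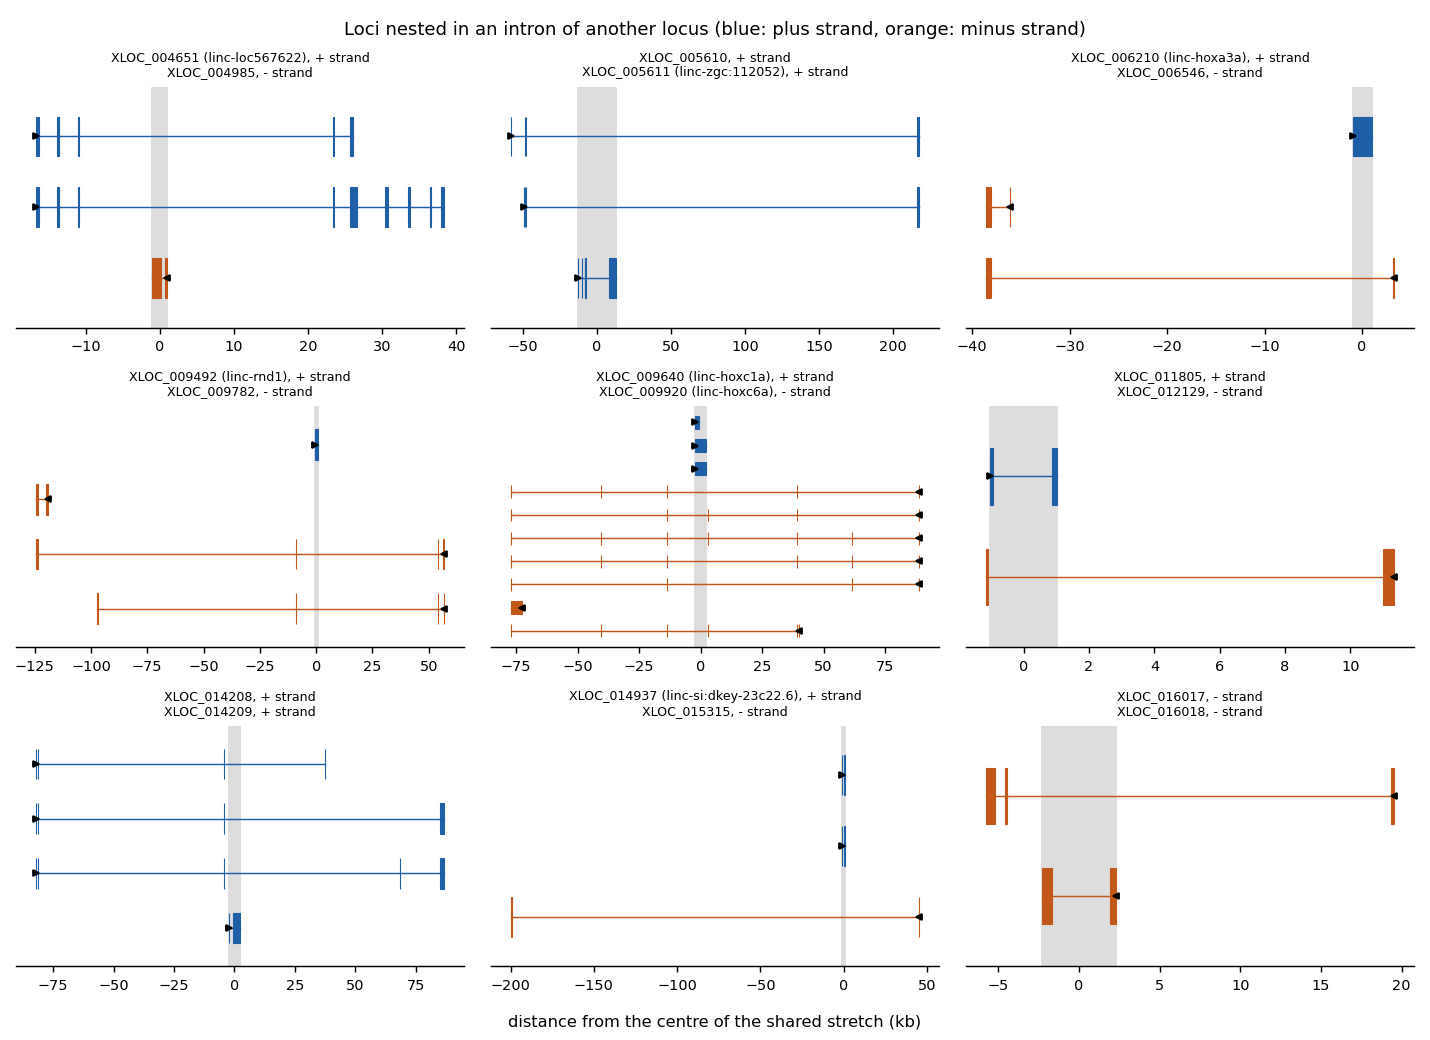
Transcript models of the 9 pairs in which a locus lies in an intron of another; boxes are exons, lines introns and black arrowheads 5′ ends, blue for the plus and orange for the minus strand. The x axis is the distance in kb from the centre of the nested locus (grey). In 6 panels the nested locus faces the opposite way to its host and in 3 the same way, and in 3 panels at least 1 host model does not reach the nested locus.

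In the 6 staggered pairs both loci were on the same strand, each locus reaching beyond the other at 1 end. In all 6 the first exon of the downstream locus lay in the first intron of the upstream locus, and the last exon of the upstream locus lay in the first intron of the downstream locus. For models of 2 exons that share no exon base, no other staggered order is possible. Of the 6 pairs, 4 were formed by Zv9_ loci alone.

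The longest overlap of the catalogue, 38390 bp, was the pair XLOC_011310 (3658173 to 3873435) and XLOC_011309 (3532892 to 3696562) on the minus strand of chromosome 3. It depended on 1 model: Zv9_00006772 ran through an intron of 211951 bp to exons of 44 and 79 nt inside the intron of XLOC_011309. The other model of that locus, Zv9_00006785, spanned 3369 bp and stayed clear. On chromosome 5, XLOC_012734 (65703572 to 65771094) and XLOC_012735 (65763364 to 65772340) overlapped by 7731 bp, with a last exon of 42 nt of the upstream locus inside the 8211 bp intron of the downstream one. Also on chromosome 5, XLOC_012312 (794094 to 804239) and XLOC_012313 (802039 to 808849) overlapped by 2201 bp through the model Zv9_00010462, and the second model of XLOC_012313 started at 806599, outside the overlap. On chromosome 21, XLOC_008489 (34861878 to 34864085) and XLOC_008490 (34862885 to 34865082) overlapped by 1201 bp and were alike in size. They spanned 2208 and 2198 bp, with introns of 1874 and 1880 bp and spliced lengths of 334 and 318 nt. The first and last exons were not alike, at 278 and 56 nt in XLOC_008489 and 68 and 250 nt in XLOC_008490.

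**Figure D4:**
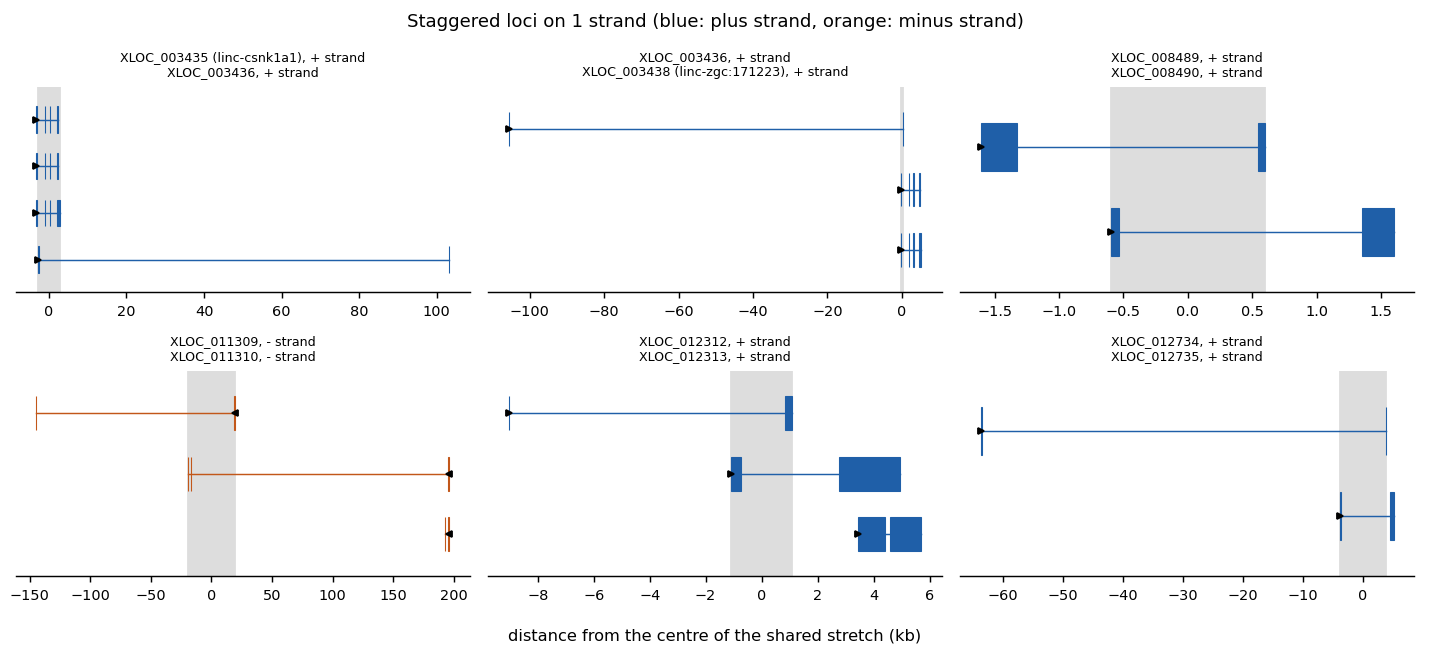
Transcript models of the 6 staggered same-strand pairs; boxes are exons, lines introns and black arrowheads 5′ ends, blue for the plus and orange for the minus strand. The x axis is the distance in kb from the centre of the shared stretch (grey), which is 677 to 38390 bp wide. Within the grey stretch each locus has exons, and they do not touch those of the other.

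The remaining staggered pairs formed the only group of 3 linked loci, on the plus strand of chromosome 14. XLOC_003436 (Zv9_00033168, 40177322 to 40283404) overlapped XLOC_003435 (linc-csnk1a1, 40176952 to 40183099) by 5778 bp at its 5′ end and XLOC_003438 (linc-zgc:171223, 40282728 to 40288333) by 677 bp at its 3′ end. It was the 1 member with 2 partners. Whether its 2 exons belong to 1 transcript was not tested. Without this locus, 44 loci in 22 pairs overlapped, and 4 pairs were staggered. Casein kinase 1 alpha, the product of csnk1a1, marks β-catenin for destruction in Wnt signalling. The RefSeq table lists zgc:171223 as a synonym of spdl1, which encodes a kinetochore protein.

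The outer loci of that group were alike in exon plan. Every model of both had 4 exons, and the internal exons measured 23 nt and 95 nt. The first introns measured 2228 and 2226 bp. The first exons differed, at 131 or 107 nt for XLOC_003435 and 118 nt for XLOC_003438. A last exon of 298 nt was found at both loci, and the longest last exons measured 772 and 773 nt. A last exon of 226 nt was found at XLOC_003435 only. The second introns were less alike, at 1147 and 1036 bp, as were the third, at 1752 and 1335 bp. The starts of the loci stood 105776 bp apart. Among the 289 catalogue loci that had a model of 4 or more exons, 4 pairs of loci had the same internal exon lengths throughout, and this was the only one made up of members. The sequences of the loci were not analysed here, so their identity was not measured.

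XLOC_003436 ran from the first intron of one of these loci to the first intron of the other. Its first exon, 250 nt, covered bases 240 to 489 of the first intron of linc-csnk1a1. Its second exon, 66 nt, covered bases 494 to 559 of the first intron of linc-zgc:171223. On that scale the stretches did not overlap. Counted from the start of each linc- locus, with its first base as 0, they ran from 370 to 619 and from 611 to 676 and had 9 positions in common. The intron between them measured 105767 bp, against 105776 bp between the starts of the outer loci. The gap between these lengths restates the 9 positions in common and is not a separate observation.

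**Figure D5:**
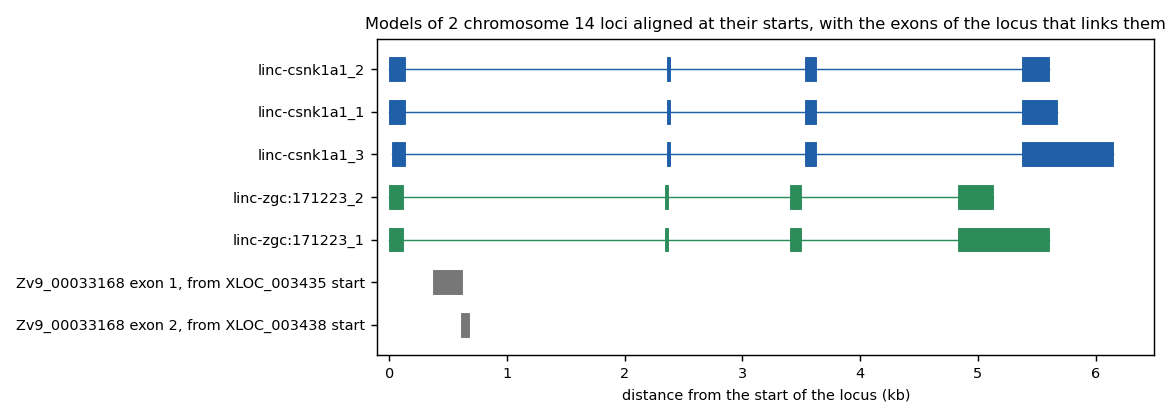
Models of XLOC_003435 (blue) and XLOC_003438 (green), each drawn from the start of its locus, with the exons of XLOC_003436 (grey) drawn from the start of the locus they lie in. The x axis is the distance in kb. Exons 2 and 3 measure 23 and 95 nt in every coloured model, and the grey exons, at 370 to 619 and 611 to 676 bases, lie within the first intron and have 9 positions in common on this scale.

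Not every model of a locus took part in its overlap. The 24 locus pairs contained 64 pairs of models, of which 56 overlapped and 8 did not. The 8 fell in 6 locus pairs: those of linc-phf2, linc-hoxa3a, linc-rnd1, linc-hoxc1a, XLOC_011310 and XLOC_012313. With the longest spliced model alone standing for each locus, 20 pairs and 39 loci remained. The 4 pairs lost were those of linc-phf2, linc-hoxa3a, linc-hoxc1a and XLOC_011310 with XLOC_011309. At the linc-hoxc1a pair the longest spliced model of the host was the single exon linc-hoxc6a_1, 4336 nt, which does not span the nested locus. Another 2 pairs kept their arrangement with a much shorter overlap, 389 bp in place of 3167 bp for linc-sox3 and 599 bp in place of 2036 bp for linc-otoa.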

How the data were processed

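The series holds ribosome profiling libraries of 8 embryo stages. The submitters' processing notes name the tools Bowtie2, TopHat2 and bedtools and the build Zv9, also called danRer7, without versions. The values used were the exon coordinates that the authors deposited in 2 annotation tables, for zebrafish (Zv9) and mouse (mm9). Per the authors' deposited description, zebrafish models came from Ulitsky et al. (linc-), Pauli et al. (Zv9) and RefSeq; Zv9 models include other developmental transcripts of the same loci, which were not separated. How models were grouped into loci is not stated. Columns of per-sample values passed over numbered 0.

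From the tables, bounds, overlaps, arrangement and shared exon bases were computed in Python 3.11.15 with numpy 2.4.6 and drawn with matplotlib 3.10.9. The minimum overlap was 1 base. Exons of all models of a locus were merged before shared bases were counted, and exons were numbered in the order of transcription. The longest spliced model stood for a locus in exon numbers and spliced lengths. The search and the sorting into arrangements were tested on simulated data. All values are counts and lengths of an annotation with no replicates, so no test was run and no interval is given. Every overlapping pair could be named. Of 17 gene names, 16 were found in RefSeq's gene table (GRCz12tu), from which no coordinate was taken. The members and the measures were chosen with earlier results of these data known. Alternatives were the longest model, sources, minimum overlaps, strands, assembled chromosomes and the definition of introns. Sequences, coding genes and splice motifs were not analysed here.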

Additional observations from a re-analysis of the deposited data

How the results depend on the processing

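Of 61 recomputed values, 43 stayed within 1.5 times the reported count, or equal to it for the median overlap. Many of the 43 could not have changed, so the tally is no measure of stability. No member carried a RefSeq model or lay on an unplaced scaffold, so the settings that drop these could not act. XLOC_003436 was in staggered pairs only, so leaving it out could not alter the nested, head-to-head or exon-overlap counts. The number of pairs rested on the merging of sources. With Zv9_ models only there were 16 overlapping loci in 8 pairs, with 3 nested in an intron, 1 head-to-head and 1 with exon overlap. With linc- models only there were 4 loci in 2 pairs, with 0 nested, 1 head-to-head and 2 with exon overlap. By strand, 30 loci in 15 pairs overlapped on opposite strands and 17 loci on the same strand. The median overlap of 2130.5 bp became 2041.5 bp with the longest model of each locus, 2201 bp with an overlap of at least 10% of the shorter locus, 2684 bp with at least 500 bases, 4769 bp with Zv9_ models only and 3018 bp with linc- models only. These settings keep fewer models or fewer pairs by construction. Tail-to-tail pairs numbered 0 under all 8 settings tried for them. Settings that only drop pairs or loci cannot raise a count of 0, so they could not have given another result. The longest-model setting drops models and could have raised it. At XLOC_008752 the longest model was Zv9_00049090 (786 nt), with which the pair stayed contained. Zv9_00049091 (742 nt), little shorter, was tail-to-tail with linc-otub1l_1. Leaving out RefSeq models changed no value and could not, since no member carried one. Leaving out XLOC_003436, chosen after seeing the data, gave 44 loci in 22 pairs and moved none of the other values recomputed for it. Staggered pairs, which are not among those values, fell from 6 to 4. No paired analysis was possible because the tables hold no value per sample. The depth of the footprint libraries was not used for these values. The depth of the data from which the models were built is not known here.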

Other observations

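In the mouse catalogue of the same series, on the mm9 build, the same rule found 4 of 167 loci, or 2.40%, in 2 pairs, both on opposite strands. On chromosome 13, XLOC_005325 (98252637 to 98285625, plus strand) and XLOC_005787 (98225466 to 98274937, minus strand) were head-to-head with an overlap of 22301 bp and 14829 shared exon bases. On chromosome 6, XLOC_017356 (13819074 to 13822188, minus strand) lay in an intron of XLOC_016715 (13804345 to 13846787, plus strand) without shared exon bases. The species were not compared by a test, since their catalogues were made from different annotations.

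The other 3 pairs of zebrafish loci with the same internal exon lengths held no overlapping locus. They were XLOC_004137 and XLOC_004139 on chromosome 15, XLOC_009071 and XLOC_009341 on chromosome 22, and XLOC_011765 and XLOC_011766 on chromosome 4. Their first bases by coordinate stood 241177, 10150 and 7497 bp apart. On chromosome 22, XLOC_009071 lay on the plus strand and XLOC_009341 on the minus strand, so that distance is not one between 5′ ends.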
